A study of Sus scrofa with 30 samples.

Results

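The comparison described here set the endometrium of gilts on day 20 of pregnancy (PD20, 6 libraries) against that of gilts on day 20 of the estrous cycle (CD20, 5 libraries), 11 of the 30 small RNA libraries of the series. Every library came from 1 animal. Members were all libraries that the labels give to these groups, and the sequences compared were those that the study had annotated to miRNAs, found in each library by exact match. Of these sequences, 842 had reads in all 11 libraries and 31 in some of them. They belonged to 237 miRNAs, counted per mature arm, and to 169 families of miRNAs with a common seed. Deposited reads per library ran from 2092518 (CD20 replicate 4) to 5638581 (PD20 replicate 1), and reads of the annotated sequences from 1701221 to 4448675, so that 1 read was worth less than 1 CPM in each library (CPM being reads per 1000000 annotated reads after scaling, as set out with the methods).

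The animals were Hampshire x Duroc gilts of 7 to 8 months of a single commercial herd, and the label on insemination at the third estrus is the same text for both groups. A gilt counted as pregnant when at least 4 conceptuses were found. On D20 of pregnancy the conceptus was already attached and was dissected away, so that PD20 tissue stems from its sites of attachment, whereas D12 and D16 uteri could be flushed. No library of conceptus tissue was analysed here, so RNA of the endometrium and RNA of conceptus cells that stayed on it cannot be told apart. In such whole tissue samples, fewer cells of a type and less RNA per cell cannot be told apart either.

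miRNAs are short RNAs cut from hairpin precursors by DROSHA and DICER1, and 1 of the 2 arms, or both, is loaded into an Argonaute protein. Bases 2 to 8, the seed, pair with messenger RNAs and set most of the choice of targets, so that miRNAs with the same seed form a family. IsomiRs are forms of a miRNA with a shifted end. A shift of the 3′ end keeps the seed, whereas a shift of the 5′ end moves it. In the pig, the trophoblast attaches to the luminal epithelium without invading it, and on D20 the attached conceptus meets an endometrium under progesterone, while a cyclic gilt nears the next estrus.

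The sequences below are the 13 whose reads differed between PD20 and CD20, since the results turn on them. They are written as DNA from 5′ to 3′ with the seed in capitals. ADD and DEL give the number of bases added or deleted at an end in comparison with the canonical sequence.
miR-302: tAAACGTGgatgtacttgcttt
ENSSSCG00000026388: gGGGATGTagctcagtggt
miR-23a/miR-23b: aTCACATTgccagggatt
miR-30c-3p 3′ DEL 2: cTGGGAGAaggctgtttact
miR-30a-3p 3′ DEL 1: cTTTCAGTcggatgtttgcag
miR-30a-3p 5′ DEL 1 3′ DEL 1: tTTCAGTCggatgtttgcag
miR-205: tCCTTCATtccaccggagtctg
miR-205 3′ DEL 1: tCCTTCATtccaccggagtct
miR-205 3′ ADD 1: tCCTTCATtccaccggagtctgt
miR-106b-5p: tAAAGTGCtgacagtgcagata
miR-27a: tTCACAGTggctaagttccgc
miR-1249: aCGCCCTTcccccccttcttca
miR-146a-5p 3′ ADD 2: tGAGAACTgaattccatgggttat
The first 6 were higher in PD20 and the other 7 lower. All 3 listed forms of miR-205 carry the seed CCTTCAT, while the 2 forms of miR-30a-3p differ by 1 base at the 5′ end and so in their seed.

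The libraries did not separate by group on the whole. By the correlation of log2 CPM over all annotated sequences, PD20 replicate 4 was nearer to the mean of CD20 (r = 0.963) than to the mean of the other PD20 libraries (r = 0.947). CD20 replicate 4 (0.969 with PD20, 0.947 with its own group) and CD20 replicate 5 (0.962 and 0.952) were nearer to PD20. On the first principal component, which held 48.7% of the variance, CD20 replicates 1, 2 and 3 lay at 28.4, 20.4 and 10.4, CD20 replicates 4 and 5 at -5.87 and -3.08, PD20 replicate 4 at 6.86, and the other PD20 libraries between -12.9 and -8.60. PD20 replicate 1 stood apart by another measure: its reads of miR-143-3p, summed over isomiRs, came to 702019 CPM against 77521 to 164885 CPM in the other PD20 libraries, and its TMM factor was 0.582. The comparison was therefore repeated without each library in turn, and the repeats in which a call held are given with the results.

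**Figure D1:**
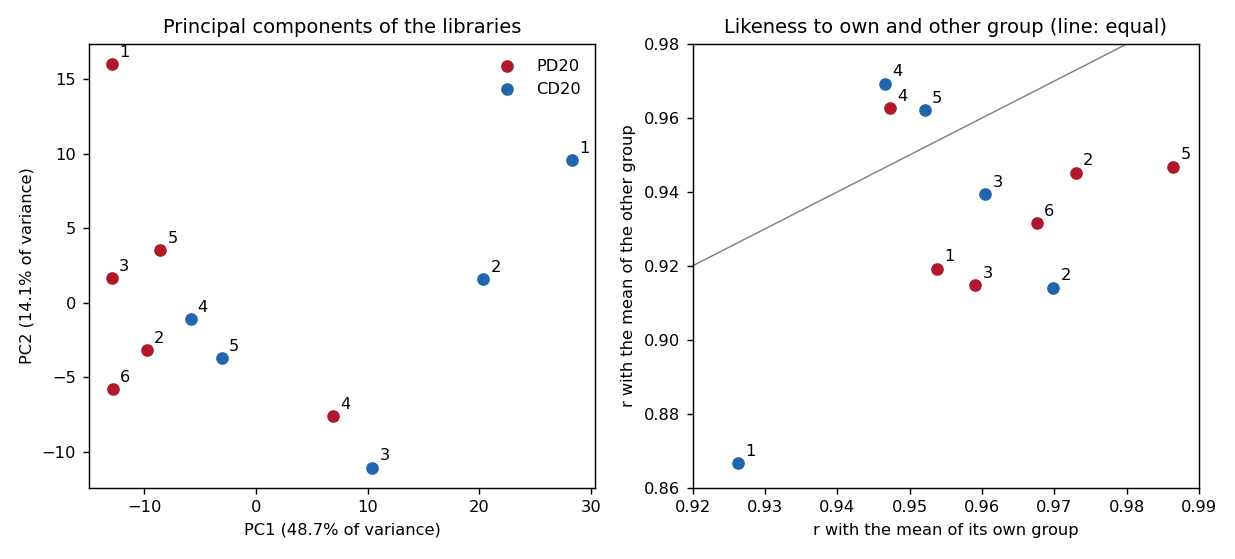
Left, principal components 1 and 2 of log2 CPM over all annotated sequences, 1 point per library with its replicate number (PD20 red, CD20 blue). Right, the correlation of each library with the mean of its own group (x axis) and of the other group (y axis), where PD20 replicate 4 and CD20 replicates 4 and 5 lie above the line of equal correlation.

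In all, 13 annotated sequences were called on PD20 vs. CD20 (edgeR quasi-likelihood test, Benjamini-Hochberg adjusted p under 0.05 and absolute log2FC over 1), which is 1.49% of those tested. Of these, 6 were higher in PD20 (0.687%) and 7 lower (0.802%), and the groups did not overlap in 10 of the 13, whereas over all sequences the groups did not overlap in 39 (4.47%). At an unadjusted p under 0.05 there were 249 (28.5%). The median log2FC over all sequences was -0.03, and 48.6% of them had a log2FC above 0. With all deposited reads as library size in place of TMM, the median moved by -0.23 and the calls were 2 higher and 14 lower, with 9 of the 13 among them. A block for the range of the number in the sample titles gave 9 higher and 3 lower, with 9 of the 13 among them, and lost miR-1249, miR-27a, miR-146a-5p and miR-106b-5p. The count rested on single libraries, as leaving out PD20 replicate 4 gave 116, CD20 replicate 4 104 and CD20 replicate 5 59, each time with all 13 among them, but 5 without any one of PD20 replicates 5 and 6 and CD20 replicates 1 and 2, and 6 without PD20 replicate 3. The 3 forms of miR-205, miR-302 and the 19-base sequence of ENSSSCG00000026388 were called in all 11 of these repeats. The call of miR-27a held in 6 and those of the remaining 7 sequences in 4 each, and all 8 were lost without any one of PD20 replicates 3, 5 and 6 and CD20 replicates 1 and 2.

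**Figure D2:**
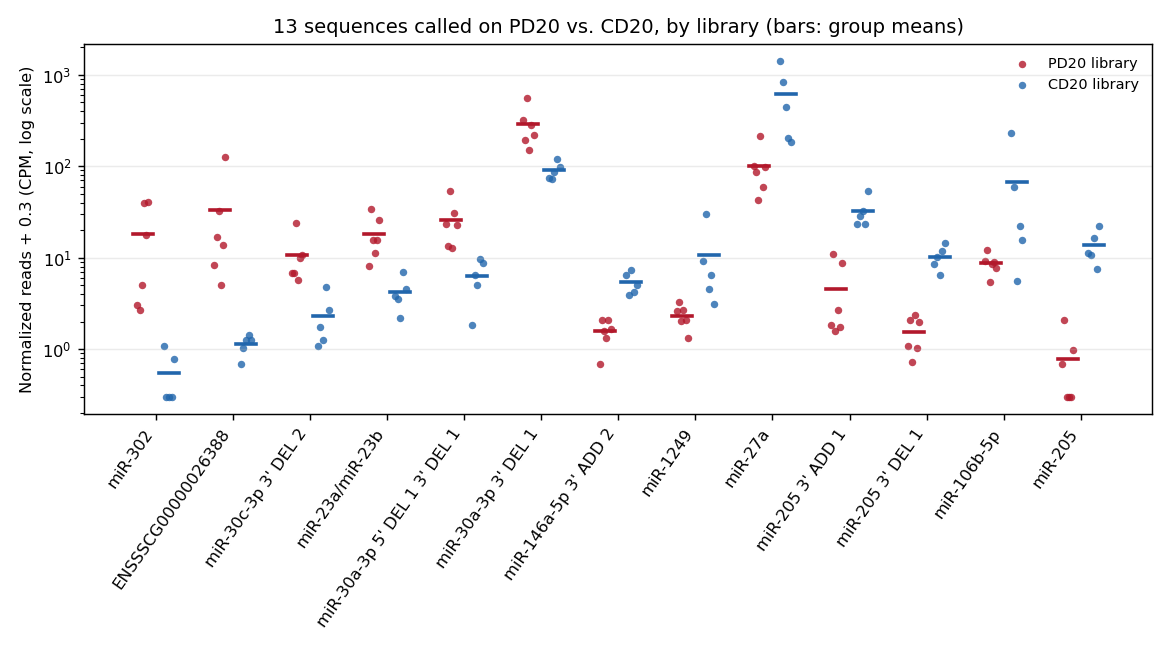
Normalized reads of the 13 called sequences in each library (CPM + 0.3, log scale), with PD20 in red, CD20 in blue and bars at group means. The groups overlap in miR-27a, miR-106b-5p and miR-1249 and are apart in the other 10.

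miR-205, which is known as a miRNA of epithelia that holds back ZEB1 and ZEB2, was lower in PD20 in each of its forms. The canonical sequence was at 0.386, 1.77, 0, 0, 0 and 0.675 CPM in PD20 replicates 1 to 6 and at 10.9, 10.5, 16.1, 7.21 and 21.8 CPM in CD20 replicates 1 to 5. In the 3 PD20 libraries without a read, 0 reads allow up to 1.02 to 1.29 CPM, which is under the lowest CD20 library. The difference was log2FC -4.86 (SE 0.68, edgeR adjusted p = 0.00159), and the groups did not overlap. Without PD20 replicate 2 the log2FC was -5.63.

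The isomiR with 1 base more at the 3′ end was the most abundant form, at 1.54, 10.6, 1.29, 2.38, 1.44 and 8.44 CPM in PD20 and 22.9, 28.1, 32.1, 23.3 and 53.7 CPM in CD20. Its log2FC was -2.92 (SE 0.559, edgeR adjusted p = 0.0128). The form with 1 base less gave 0.429 to 2.04 CPM in PD20 and 6.14 to 14.2 CPM in CD20 (log2FC -2.96, SE 0.454, edgeR adjusted p = 0.00248). Every PD20 library was under every CD20 library in both. Summed, miR-205 was 8.18-fold more abundant in CD20 (51.8 ± 22.6 CPM, SD, n = 5) than in PD20 (6.34 ± 5.49 CPM, SD, n = 6), with log2FC -3.04 and edgeR adjusted p = 0.00246. The study reports that RT-PCR bore out its sequencing pattern of miR-205 only among the days of pregnancy, not for pregnant against cyclic animals.

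miR-302 belongs to a cluster known from embryonic stem cells, where it helps to keep cells undifferentiated. The listed sequence lies in its 5′ arm. It was found at 2.7, 2.36, 4.72, 39.8, 17.3 and 40.8 CPM in PD20 and at 0.778, 0, 0, 0 and 0.475 CPM in CD20. All 6 PD20 libraries were above all 5 CD20 libraries, and PD20 replicates 4, 5 and 6 were several times above the other PD20 libraries. In reads, there were 308 in PD20 and 3 in CD20, a ratio of 76.3 after scaling by annotated reads and TMM factors, with a 95% exact interval of 25.9 to 371.9 that covers counting error only. The call held in all 11 repeats that left out 1 library (log2FC 5.86, SE 1.05, edgeR adjusted p = 0.00775 with all libraries, and log2FC 6.79 without CD20 replicate 1).

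Reads outside the annotated list carried the same core. Reads that held bases 3 to 19 of the listed sequence took 25 distinct forms, with 609 reads in PD20 and 4 in CD20, or 3.01 to 77.7 RPM (reads per 1000000 deposited reads) in PD20 and at most 0.757 in CD20. The most abundant unlisted form, acttaaacgtggatgtacttgct, starts 3 bases earlier than the listed one and so has another seed. It had 83 reads in PD20 and 0 in CD20. Of 15 names in the list of embryonic stem cell markers, only miR-302 was among the annotated sequences, and what the others did was not analysed here.

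The 19-base sequence listed under ENSSSCG00000026388, an Ensembl gene without a miRNA name in the list, starts like the 5′ end of an alanine tRNA. It was at 8.1, 16.5, 32.2, 4.76, 13.3 and 125.2 CPM in PD20 and at 0.389, 0.722, 0.945, 1.11 and 0.95 CPM in CD20 (log2FC 5.29, SE 0.895, edgeR adjusted p = 0.00535). The groups did not overlap, but PD20 replicate 6 alone held most of the 546 reads of PD20, against 9 reads in CD20. The same sequence without its last base gave 11.4 RPM in PD20 and 6.11 in CD20, and longer reads with the same start gave 8.66 and 4.38, with overlapping groups in both cases, and whether the forms differed from each other was not tested. Summed with the other listed form of this gene, it was at 13.5 to 135.7 CPM in PD20 and 1.95 to 22.3 CPM in CD20 (log2FC 2.81, SE 0.69, edgeR adjusted p = 0.0353), and this call held in 6 of 11 repeats. Without PD20 replicate 6, the sum gave log2FC 2.19 (edgeR adjusted p = 0.0939) and the 19-base sequence 4.13 (0.00312). Without CD20 replicate 4, the sum gave 3.70 (0.00595).

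Of the miR-30 family, known from epithelia and for restraining autophagy and mesenchymal genes, 3 arms were higher in PD20, namely miR-30a-3p, miR-30c-3p and miR-30d. miR-30a-3p lacking the last base was at 317, 194, 556, 151.9, 281 and 218 CPM in PD20 and at 74.6, 72.2, 86.4, 121 and 98.3 CPM in CD20 (log2FC 1.66, SE 0.375, edgeR adjusted p = 0.0368). The form shortened at both ends gave 12.6 to 53.2 CPM in PD20 and 1.56 to 9.42 CPM in CD20 (log2FC 2.09, SE 0.503, edgeR adjusted p = 0.05 after rounding, just under the threshold before). In neither did the groups overlap. All 10 listed forms of miR-30a-3p had a log2FC above 0, and their sum was 1156 ± 409.6 CPM in PD20 (SD, n = 6) and 423 ± 200.02 CPM in CD20 (SD, n = 5), with log2FC 1.45 and edgeR adjusted p = 0.0353. PD20 replicate 4, at 418 CPM, lay within the range of CD20.

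miR-30c-3p shortened by 2 bases was at 5.44 to 23.6 CPM in PD20 and at 0.778 to 4.43 CPM in CD20 (log2FC 2.40, SE 0.552, edgeR adjusted p = 0.0405). Its sum, 751 ± 362.8 CPM in PD20 and 209.97 ± 122.2 CPM in CD20, was also called (log2FC 1.84, edgeR adjusted p = 0.0353), and all 5 forms pointed the same way. miR-30d, a 5′ arm, was at 13554, 10584, 8848, 7316, 11537 and 16981 CPM in PD20 and at 2783, 3080.2, 4998, 5517 and 6717 CPM in CD20. It was thus higher in every PD20 library than in any CD20 library (log2FC 1.31, SE 0.344, edgeR adjusted p = 0.0353). Within miR-30d, 4 of 6 forms had a log2FC above 0. These 3 sums are less firm than miR-205 and miR-302, as they stayed called in 4 or 5 of 11 repeats without 1 library, and those of miR-30a-3p and miR-30d were also lost with a block for the range of the number in the sample titles.

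Over the miR-30 list, 3 of 9 arms were higher (over all 237 miRNAs, 4.64%), none lower, and the median log2FC was 0.78, compared with 0.03 over all 237 miRNAs. The most abundant, miR-30a-5p, was at 24239 to 46198 CPM in PD20 and 13726 to 27509.8 CPM in CD20 (log2FC 0.91, edgeR adjusted p = 0.0734). miR-30e-5p gave log2FC -0.15 (edgeR adjusted p = 0.718) and miR-30b-5p -0.13 (0.816). The reads of the list summed to between 39052 and 60670.3 CPM in PD20 and between 22182.5 and 34229 CPM in CD20 and did not overlap. Per 1000000 deposited reads, however, the sums were 26542 to 46500 and 19016 to 32058 and overlapped. Under that scaling 1 arm was called higher, miR-30c-3p, and the median was 0.40. Over all 237 miRNAs, 2.11% were then higher and 13.9% lower, with a median of -0.38. Taken by seed, the family GTAAACA of the 5′ arms had log2FC 0.85 and missed the threshold (edgeR adjusted p = 0.0639).

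The miR-23, miR-27 and miR-24 miRNAs are cut from common transcripts and are known from vessel growth and lipid metabolism. Of their listed sequences 2 were called, an 18-base sequence higher and canonical miR-27a lower in PD20 (over all sequences, 0.687% higher and 0.802% lower). The 18-base sequence, which fits both miR-23a and miR-23b, was at 7.72, 33.6, 15.4, 10.9, 15.1 and 25.6 CPM in PD20 and at 3.5, 3.25, 1.89, 6.65 and 4.27 CPM in CD20 (log2FC 2.20, SE 0.477, edgeR adjusted p = 0.0328). The groups did not overlap, although PD20 replicate 1 came close to CD20 replicate 4. In contrast, the canonical miR-23b gave log2FC 0.05 (edgeR adjusted p = 0.922), and the sum of miR-23a 0.17 (0.685). Since the 18-base sequence was the only form counted under the joint name, its sum was called as well (log2FC 2.40, edgeR adjusted p = 0.0104). The call held in all 11 repeats without 1 library among the miRNA sums, but in only 4 of 11 among the sequences, although the reads are the same.

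Canonical miR-27a was at 99.6, 86.7, 42.5, 215, 59 and 97.9 CPM in PD20 and at 1426, 843, 448.7, 201 and 185 CPM in CD20 (log2FC -2.63, SE 0.55, edgeR adjusted p = 0.0262). The groups overlapped, with PD20 replicate 4 above CD20 replicates 4 and 5, and the call was lost in 5 of 11 repeats. The form shortened by 2 bases had log2FC 0.79. The share of miR-27a reads with at least 2 bases deleted averaged 30.2% in PD20 and 9.75% in CD20. The groups overlapped in this share, at 5.42 to 42.9% in PD20 and 2.78 to 18.5% in CD20. Summed over its 5 forms, miR-27a gave log2FC -1.26 and did not pass (edgeR adjusted p = 0.0618). Over the list of 9 arms, 1 was higher (over all 237 miRNAs, 4.64%), 0 lower, and the median log2FC was 0.42. Scaled by all deposited reads, 1 was higher, 1 lower (2.11% and 13.9% over all) and the median was -0.09.

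Of the other sequences lower in PD20, the isomiR of miR-146a-5p with 2 extra bases was apart between the groups, at 0.386 to 1.8 CPM in PD20 and 3.61 to 7.08 CPM in CD20 (log2FC -1.99, SE 0.444, edgeR adjusted p = 0.0368). miR-146a-5p is a miRNA induced by NF-kB that damps innate immune signalling. Its sum gave log2FC -0.41 (edgeR adjusted p = 0.397), and 5 of its 6 forms had a log2FC below 0, with the most abundant, the canonical one, at -0.78 (0.167). miR-1249 was at 1.01 to 2.95 CPM in PD20 and at 8.94, 30, 4.25, 6.1 and 2.85 CPM in CD20 (log2FC -2.37, SE 0.576, edgeR adjusted p = 0.05 after rounding, just under the threshold before), and CD20 replicate 5 lay among the PD20 libraries. Without CD20 replicate 2 its log2FC was -1.45 (edgeR adjusted p = 0.141).

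Summed per miRNA, 18 of 237 were called on PD20 vs. CD20 (7.59% of those tested), 11 higher (4.64%) and 7 lower (2.95%), and 68 had an unadjusted p under 0.05 (28.7%). The groups did not overlap in 6 of the 18 and in 9 of all 237 (3.8%). The median log2FC was 0.03, with 51.9% above 0. With all deposited reads as library size the median moved by -0.41 and the calls were 5 higher (2.11%) and 33 lower (13.9%), 12 of the 18 among them and none with a changed sign. The calls lost there were those of miR-30a-3p, miR-30d, miR-203-3p, miR-361, miR-300 and miR-129b. With a block for the title number range, 7 miRNAs were called, 6 of the 18 among them, namely miR-302, ENSSSCG00000026388, the joint miR-23a/miR-23b sequence, miR-30c-3p, the other arm of miR-144 and miR-205, and the other 12 were lost. In the miRNA sums only miR-205, miR-302 and the 18-base miR-23a/miR-23b sequence stayed called in all 11 repeats without 1 library. The other 15 were each lost without any one of PD20 replicates 3, 5 and 6 and CD20 replicates 1 and 2. Leaving out PD20 replicate 4 gave 39 calls, CD20 replicate 4 38, CD20 replicate 3 29 and CD20 replicate 5 25. It fell to 7 without PD20 replicate 2, 5 without PD20 replicate 1 and 3 without any one of PD20 replicates 3, 5 and 6 and CD20 replicates 1 and 2.

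**Figure D3:**
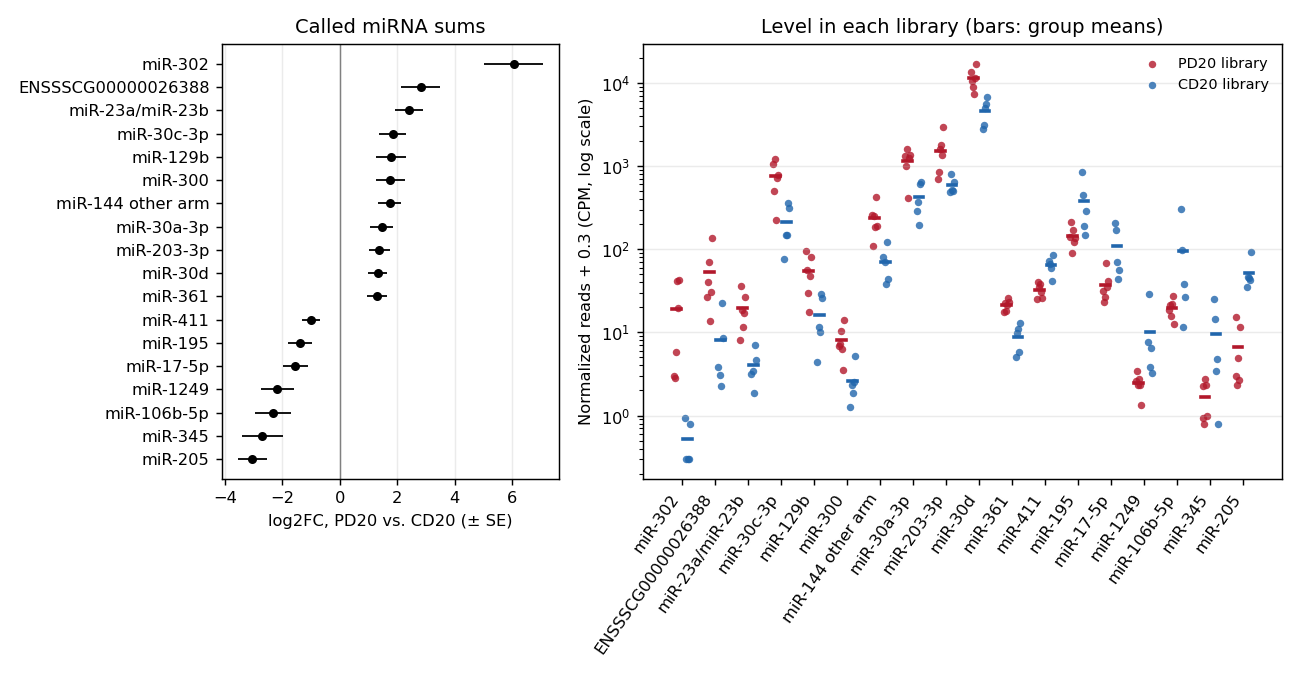
Left, log2FC of PD20 vs. CD20 with its SE for the 18 called miRNAs. Right, their reads summed over isomiRs in each library (CPM + 0.3, log scale), PD20 in red, CD20 in blue, bars at group means. miR-302 and miR-205 lie at the ends, with log2FC 6.06 and -3.04, and the other 16 between them.

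miR-17-5p, miR-106b-5p and miR-195 were among the 7 lower sums, and they are shown with miR-16 by their leading sequence because members of a group have the same seed. miR-17-5p and miR-106b-5p are members of the miR-17 to miR-92 clusters and their paralogs, which MYC and E2F switch on in dividing cells. miR-195 and miR-16 are known to slow the cell cycle through cyclins.
miR-17-5p: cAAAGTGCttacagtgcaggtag
miR-106b-5p: tAAAGTGCtgacagtgcagata
miR-195 3′ ADD 1: tAGCAGCAcagaaatattggca
miR-16: tAGCAGCAcgtaaatattggcg
miR-17-5p was at 22.7 to 67.8 CPM in PD20 (median 33) and at 205.3, 169.8, 70.3, 42.9 and 56.6 CPM in CD20, with log2FC -1.55 (SE 0.435, edgeR adjusted p = 0.042). The sum of miR-106b-5p was at 12.2 to 27.3 CPM in PD20 (median 19.5) and at 306, 98.5, 11.3, 37.4 and 26.1 CPM in CD20, with log2FC -2.32 (SE 0.63, edgeR adjusted p = 0.0353). CD20 replicate 1 held the highest level of both, and the groups overlapped. Without it, the sum of miR-106b-5p gave log2FC -1.21 (edgeR adjusted p = 0.138) and its canonical sequence -1.59 (0.145). With all libraries, the canonical sequence of miR-106b-5p, at 5.15 to 11.8 CPM in PD20 and 5.2 to 231 CPM in CD20, was called with log2FC -3.002 (SE 0.713, edgeR adjusted p = 0.0486).

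miR-195 was at 90.7 to 213 CPM in PD20 (median 139) and at 838, 445, 189, 149 and 286 CPM in CD20 (log2FC -1.39, SE 0.41, edgeR adjusted p = 0.048). miR-16 had a log2FC of -1.45 with all 5 forms below 0, but missed the threshold (edgeR adjusted p = 0.0618). CD20 replicates 1 and 2 were the highest libraries for both. Among 11 arms of the proliferation list, 2 were lower (over all 237 miRNAs, 2.95%), 0 higher, and the median log2FC was -0.28. With all deposited reads as library size, 4 of the 11 were lower (over all 237 miRNAs under this scaling, 13.9%) and the median was -0.80. On the TMM scale, the list's most abundant member miR-20a gave -0.95 (edgeR adjusted p = 0.0889) and its 3′ arm member miR-106b-3p 1.01 (0.215). Among 5 miRNAs of the miR-15/16 list, 1 was lower (2.95% over all) and the median was -1.04, compared with 2 (13.9% over all) and -1.62 with all deposited reads as library size. By seed, the AAAGTGC family had log2FC -1.08 (edgeR adjusted p = 0.0639) and the AGCAGCA family -1.38 (0.051). miR-17-5p, miR-106b-5p and miR-195 each stayed called in 4 of 11 repeats.

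Markers of epithelium were all found, 13 arms of 11 names, and did not move as 1 group. 1 was higher and 1 lower (over all 237 miRNAs, 4.64% and 2.95%), and the median log2FC was 0.03, the same as over all miRNAs. The counts were 0 higher and 2 lower (2.11% and 13.9% over all), and the median -0.34, with all deposited reads as library size. The lower one was miR-205. The higher one was miR-203-3p, known to promote differentiation of surface epithelia, at 692, 844, 1582, 1796, 1354 and 2907 CPM in PD20 and at 493.4, 797, 519.5, 501.7 and 645 CPM in CD20 (log2FC 1.37, SE 0.367, edgeR adjusted p = 0.0353). All but PD20 replicate 1 were above every CD20 library, all 11 forms had a log2FC above 0, and the call held in 6 of 11 repeats. The summed reads of the list were led by miR-182 and ran from 15386 to 34026 CPM in PD20 and from 8859 to 14771 CPM in CD20 without overlap. Per 1000000 deposited reads they overlapped, at 9150 to 21577 and 9366 to 13720. That an epithelial share of this tissue went with the differences above was not tested.

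miR-375, a miRNA of secretory epithelium, had the largest log2FC of the list that was not called, 1.48 (422 to 2672 CPM in PD20 and 205.5 to 659 CPM in CD20, edgeR adjusted p = 0.0559). miR-182 gave 1.15 (edgeR adjusted p = 0.0928). Members of the miR-200 family, which keep the epithelial state, did not pass in either direction. Values named after they were seen are miR-200c-3p with log2FC 0.85 (edgeR adjusted p = 0.136), miR-141 with -1.11 (0.215) and miR-429 with -1.31 (0.0734), so that the arms of this family had opposite signs.

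Apart from miR-302, markers of other cells held 1 call (over all 237 miRNAs, 4.64% were higher and 2.95% lower). Endothelial miR-126 summed to 3515 to 5448 CPM in PD20 and 3846 to 4962 CPM in CD20. The leukocyte list, led by miR-146a-5p, summed to 314 to 576 CPM and 425 to 662 CPM, with 0 of 6 arms called; of its 6 names, miR-223 was not among the annotated sequences. The stroma and smooth muscle list had 0 of 10 arms called and a median log2FC of -0.05, and the striated muscle list 0 of 3 with a median of 1.87, where miR-1 rested on PD20 replicate 1. The erythrocyte list was led by miR-451 and summed to 875 to 4487 CPM in PD20 and 331 to 1642 CPM in CD20, with a median log2FC of 1.15.

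Within the erythrocyte list, 1 of 4 arms was higher (over all 237 miRNAs, 4.64%), the arm of miR-144 opposite to the named one. It was at 259, 108, 253, 186, 421 and 187 CPM in PD20 and at 79.7, 69, 38.3, 123 and 43.1 CPM in CD20 (log2FC 1.74, SE 0.398, edgeR adjusted p = 0.0253), with CD20 replicate 4 above PD20 replicate 2 only, and the call held in 5 of 11 repeats. miR-451, cut from the same transcript, gave 756 to 4033 CPM in PD20 and 284 to 1509 CPM in CD20 (log2FC 1.26, edgeR adjusted p = 0.0987). How far blood in the samples contributed was not tested.

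**Figure D4:**
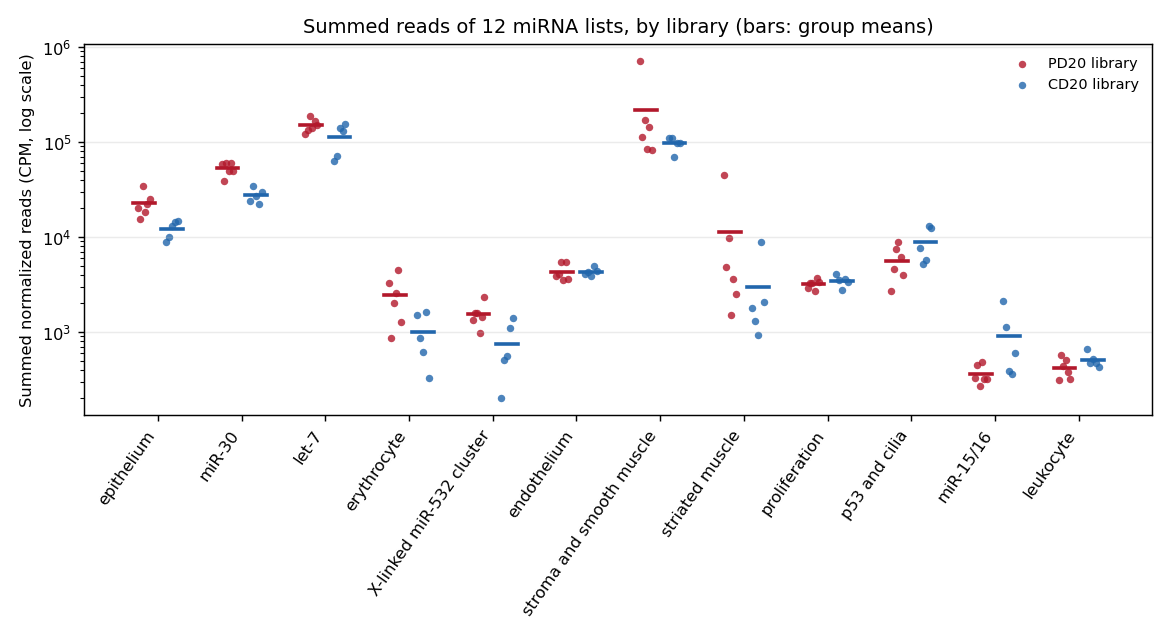
Summed normalized reads (CPM, log scale) of 12 lists of miRNAs in each library, PD20 in red, CD20 in blue, bars at group means. The epithelium and miR-30 lists are apart between the groups, with PD20 above. The endothelium list overlaps, at 3515 to 5448 CPM in PD20 and 3846 to 4962 CPM in CD20.

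The other called sums were of single miRNAs. miR-361, the 3′ arm of its hairpin, was at 17.5, 22, 17.5, 21, 25.3 and 23 CPM in PD20 and at 4.78, 9.61, 10.5, 5.57 and 12.6 CPM in CD20, without overlap (log2FC 1.29, SE 0.349, edgeR adjusted p = 0.0353). miR-411, of the imprinted DLK1-DIO3 cluster, was at 24.9 to 40.3 CPM in PD20 and 41.3 to 84.2 CPM in CD20, also without overlap, and its log2FC of -1.005 was barely past the threshold (edgeR adjusted p = 0.048). All 4 of its forms were below 0. miR-300, which belongs to the same cluster though it was not in the list of its members, gave 1.76 (3.21 to 14 CPM in PD20 and 0.956 to 4.84 CPM in CD20, edgeR adjusted p = 0.0451). miR-129b gave 1.77 (edgeR adjusted p = 0.048), miR-345 -2.70 (0.0353) and miR-1249 -2.17 (0.0353), and in these 3 the groups overlapped. Without CD20 replicate 1, miR-345 gave -1.99 (edgeR adjusted p = 0.115), and without CD20 replicate 2, miR-1249 gave -1.21 (0.166). Each of these 6 sums was called in 3 or 4 of 11 repeats without 1 library.

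By seed family, 7 of 169 were called (4.14%), 4 higher (2.37%) and 3 lower (1.78%), and 48 had an unadjusted p under 0.05 (28.4%). Scaling by all deposited reads gave 4 higher and 25 lower, with all 7 among them. miR-345 and miR-1249 were lost with the block for the title number range. All 7 consist of 1 miRNA each. They are miR-302, ENSSSCG00000026388, the other arm of miR-144 and miR-30c-3p among the higher ones and miR-205, miR-345 and miR-1249 among the lower ones. No family with several miRNAs passed. Leaving out PD20 replicate 4 gave 22 families, CD20 replicate 4 23, CD20 replicate 3 20 and CD20 replicate 5 15, whereas 4 were left without PD20 replicate 5, 3 without PD20 replicate 6 or CD20 replicate 1, and 2 without PD20 replicate 3 or CD20 replicate 2.

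The remaining groups held few calls or none (over all 237 miRNAs, 4.64% were higher and 2.95% lower). Their medians are given on the TMM scale. With all deposited reads as library size, the medians of the let-7, miR-23/27/24, miR-125, miR-26, miR-148, miR-181, miR-146, angiogenesis and epithelium lists turned from above to below 0, along with the median of all miRNAs (-0.38). Under that scaling, which made 13.9% of all 237 miRNAs lower, 3 of 10 arms of the stroma and smooth muscle list were lower, 2 of 15 of let-7, 1 of 6 of the leukocyte and of the angiogenesis list, and 1 of 2 of the endothelium and of the CREB-linked list. Of 19 arms of the imprinted DLK1-DIO3 cluster, miR-411 was lower (over all 237 miRNAs, 2.95%) and the median log2FC was -0.27. With all deposited reads as library size, 6 of the 19 were lower (13.9% over all) and the median was -0.76. On the TMM scale the values ran from miR-655 to miR-382, at -1.71 (edgeR adjusted p = 0.0618) and 0.94 (0.122), with the most abundant, miR-127, at 0.59 (0.441). None of 15 arms of let-7, miRNAs of differentiated cells, was called, and their median was 0.33, from -1.77 in the other arm of let-7g (edgeR adjusted p = 0.102) to 0.91 in let-7a (0.0988). For the p53 and cilia list (miR-34 and miR-449) the median over 4 arms was -0.81, for the HOX list (miR-10 and miR-196) over 4 arms -0.81, for the CREB-linked miR-132 and miR-212 -0.99, for miR-99/100 over 3 arms -0.43 and for the X-linked miR-532 cluster over 7 arms -0.11, with 0 called in each. The same holds for miR-148 (5 arms, 0.17), miR-181 (5 arms, 0.15), miR-125 (3 arms, 0.03), miR-146 (0.13), miR-26 (0.10), miR-29 (-0.58) and the angiogenesis list (6 arms, 0.20), in which miR-222 had the largest value, 1.21 (edgeR adjusted p = 0.0559). The lowest and highest members, as log2FC, were miR-449a (-1.33) and the other arm of miR-34c (0.04) in the p53 and cilia list, miR-10a-3p (-1.12) and miR-10b (-0.26) in the HOX list and miR-132 (-1.14) and miR-212 (-0.83) in the CREB-linked list. They were miR-99b (-0.52) and miR-100 (-0.13) for miR-99/100, miR-532-3p (-0.31) and miR-532-5p (1.12) for the X-linked cluster and miR-148b-5p (-0.44) and miR-148b-3p (0.99) for miR-148. For miR-181 they were miR-181d-5p (-0.36) and miR-181a (1.20), for miR-125 miR-125a (-0.24) and the other arm of miR-125b (0.32), and for angiogenesis miR-126-5p (-1.27) and miR-222. None of these passed.

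The most abundant miRNAs were not called. miR-21 was at 213301 to 570098 CPM in PD20 and 151830.0 to 482419 CPM in CD20 (log2FC 0.58, edgeR adjusted p = 0.347). miR-143-3p gave 1.22 (edgeR adjusted p = 0.149), miR-10b -0.26 (0.63), let-7f 0.40 (0.427), miR-10a-5p -1.05 (0.179) and miR-148a-3p 0.58 (0.493). For canonical miR-143-3p, far higher in PD20 replicate 1 than in the other PD20 libraries, log2FC ran from 0.11 to 1.35 in the repeats without 1 library. Other sequences that the study dwells on also did not pass in the fit of the day 20 libraries alone. Canonical miR-140-3p was at 184 to 852 CPM in PD20 and 51.3 to 399 CPM in CD20 (log2FC 1.44, edgeR adjusted p = 0.0929), and its isomiR without the first base, which has another seed, at 515 to 2558 and 168 to 1397 CPM (1.01, 0.191). Canonical miR-191 gave -1.97 (edgeR adjusted p = 0.063), miR-23a without its last base 1.05 (0.0884) and miR-34a, a target of p53, -0.97 as a sum (0.227). The outcome depended on the fit. With all 30 libraries in 1 fit, canonical miR-140-3p passed on PD20 vs. CD20 (log2FC 1.40, edgeR adjusted p = 0.0476). So did canonical miR-191 (-1.97, 0.0385) and the sequence of miR-34a (-1.24, 0.0431). The named isomiRs of miR-140-3p (0.97, 0.140) and miR-23a (1.04, 0.153) did not.

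Among 164 miRNAs with several listed sequences, all forms had a log2FC above 0 in 30 and below 0 in 55, and in 79 the forms lay on both sides of 0. In 16 the log2FC of forms differed by over 2. Of 5 measures of the 3′ end, all chosen after seeing the data, 1 differed between the groups. The share of a miRNA's reads with at least 2 bases deleted at the 3′ end, averaged over 83 miRNAs with at least 3 placed sequences, was 9.01, 9.95, 10.8, 10.1, 9.71 and 9.38% in PD20 and 7.31, 7.26, 8.63, 8.9 and 7.87% in CD20. The groups did not overlap, with means of 9.83% ± 0.631 (SD, n = 6) and 7.99% ± 0.749 (SD, n = 5) and an exact two-sided permutation p = 0.00216, the smallest that the splits of 11 libraries allow (adjusted over 5 measures of the 3′ end, 0.0108). Without the miRNAs that hold a called sequence the difference was 1.68 percentage points (exact permutation p = 0.00649). The groups then overlapped slightly, at 8.92 to 11.22% in PD20 and 7.53 to 8.99% in CD20.

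Of the 63 miRNAs with such forms, the share was higher in PD20 in 41 and lower in 22. It was above every CD20 library in every PD20 library for 4, let-7c, let-7e, miR-126-3p (29.5% and 15.7% on average) and miR-182 (38.7% and 26.6%), and below for 0. Bases added at the 3′ end, averaged in the same way, made up 16.7% in PD20 and 16.6% in CD20 (exact permutation p = 0.803). Weighted by reads, forms with at least 2 bases deleted were 1.72% in PD20 and 1.40% in CD20 (exact permutation p = 0.232), and the groups overlapped. The read-weighted mean shift of the 3′ end, averaged over miRNAs, was -0.24 bases in PD20 and -0.19 bases in CD20 (exact permutation p = 0.0476, adjusted 0.119).

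The 2 arms of a hairpin were compared in 43 pairs, also after seeing the data. 8 pairs had an exact permutation p under 0.05 and 0 after adjustment. In miR-361 the log2 ratio of the 5′ to the 3′ arm was 1.07, 1.05, 0.225, 1.59, 0.378 and 1.13 in PD20 and 5.03, 4.09, 2.89, 3.04 and 2.15 in CD20, the only pair without overlap (difference -2.53, exact permutation p = 0.00216, adjusted 0.0931). In miR-106b the log2 ratio of the 3′ to the 5′ arm had a mean 2.96 larger in PD20 and did not pass (exact permutation p = 0.00866, adjusted 0.116), with CD20 replicates 1 and 2 at -3.20 and -0.389 and CD20 replicates 3 to 5 at 3.29 to 3.85, inside the PD20 range of 3.24 to 5.15.

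Read lengths were 17 to 31 bases. Reads of 22 bases were 46.9% ± 2.18 (SD, n = 6) of all reads in PD20 and 50.2% ± 1.20 (SD, n = 5) in CD20 (exact permutation p = 0.0152, adjusted over 6 shares 0.0909). Reads of 28 to 31 bases were 2.40% ± 0.88 and 1.59% ± 0.281 (exact permutation p = 0.0736, adjusted 0.147). Annotated sequences took 78.2% and 80.0% of reads (p = 0.145, exact permutation), the 10 most abundant sequences 57.7% and 56.6% (p = 0.71, exact permutation), and isomiRs with a shifted 5′ end 2.41% and 4.32% of reads placed on a canonical sequence (p = 0.0693, exact permutation). The shifted 5′ end was 59.0% of miR-140-3p reads in PD20 and 62.6% in CD20 (p = 0.201, exact permutation).

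All 16835 deposited sequences with at least 10 reads were also tested in 1 fit, of which 15962 lie outside the list. Of those outside, 38 (0.238%) were called, 35 higher and 3 lower in PD20, and 25 of the 38 had 28 to 31 bases, a length that 9.59% of the sequences outside the list had. Many of the 25 share a start, with 7 that begin gcatgggt and 6 that begin gcattggt, so the count is of forms and not of separate RNAs.

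The day 20 difference was set beside those of the earlier days in 1 fit of all 30 libraries, with 10 libraries on D16 and 9 on D12. For P vs. C, 0 miRNAs were called on D16 (21, or 8.86%, at an unadjusted p under 0.05 in edgeR) and 0 on D12 (16, or 6.75%), whereas 38 of 237 (16.0%) were called on D20 in this fit. The change of the difference was tested itself. Between D20 and D16, 9 miRNAs were called (3.8%, 58 at an unadjusted p under 0.05) and between D20 and D12, 2 were (0.844%, 32 at an unadjusted p under 0.05). The first count was 0 without CD16 replicate 5 or CD20 replicate 1, 2 without CD12 replicate 4, 3 without PD16 replicate 4 or CD16 replicate 3, 4 without PD20 replicate 1, 5 without PD16 replicate 5 and 15 without CD20 replicate 4. The second was 0 without any one of PD12 replicates 1 and 3, PD16 replicate 4, PD20 replicates 1, 3 and 5, CD12 replicates 1 to 4, CD16 replicate 3 and CD20 replicates 2 and 3, 1 without PD12 replicate 2 or PD20 replicate 6, 4 without PD20 replicate 4 and 9 without CD20 replicate 4.

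miR-205 was 1 of the 2 that differed between D20 and D12. Its summed level was 21.1 ± 17.4 CPM in PD12 and 18.2 ± 6.42 CPM in CD12 (log2FC 0.23), 15.2 ± 7.86 CPM in PD16 and 67.1 ± 46.2 CPM in CD16 (log2FC -2.15, edgeR adjusted p = 0.0959), and 5.96 ± 5.06 CPM in PD20 and 50.9 ± 18.6 CPM in CD20 (log2FC -3.10). The change from D12 to D20 was -3.33 (SE 0.785, edgeR adjusted p = 0.0386), while that from D16 to D20 was -0.95 (edgeR adjusted p = 0.429). In other words, the levels of pregnant and cyclic animals lay close together on D12 and apart on D20. The other miRNA was miR-212, which was at 7.07 CPM in PD12 and 1.56 CPM in CD12 and at 11.1 CPM in PD20 and 20.4 CPM in CD20 (change -3.02, edgeR adjusted p = 0.0386).

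Between D16 and D20, miR-106b-5p (change -2.59), miR-16 (-1.94), miR-411 (-1.48), miR-495-3p (-2.71), miR-380 (-1.67) and miR-155 (-1.997) moved down in pregnant relative to cyclic endometrium, and miR-361 (1.80), miR-1468 (2.01) and miR-378 (2.04) moved up (edgeR adjusted p = 0.0226 to 0.0472). miR-411, miR-495-3p and miR-380 are of the imprinted DLK1-DIO3 cluster, and miR-155 is a miRNA of activated leukocytes. In miR-106b-5p it was mainly the cyclic mean that differed between the days, as it was at 16.4 CPM in PD16 and 18.1 CPM in PD20, and at 14.6 CPM in CD16 and 97.2 CPM in CD20, where CD20 replicate 1 is far above the rest. miR-361 was at 14.7, 15.8 and 19.9 CPM on D12, D16 and D20 of pregnancy and at 6.74, 23.8 and 8.57 CPM in the cycle. Its log2FC for P vs. C was thus 1.12 on D12, -0.59 on D16 and 1.21 on D20.

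miR-302 could not be fitted for the earlier days, as its listed sequence had 0 reads in all D12 and D16 libraries, which allows up to 0.572 to 1.9 reads per 1000000 annotated reads of a library, before TMM scaling. Reads with its core averaged 0.176 RPM in PD12 and 0.0816 in PD16 against 29.5 in PD20. The 19-base sequence of ENSSSCG00000026388 averaged 3.02 CPM in PD12, 4.98 in PD16 and 33.2 in PD20, and 1.902, 2.62 and 0.816 CPM in the cycle (change of the difference from D16 to D20 4.33, edgeR adjusted p = 0.0514).

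**Figure D5:**
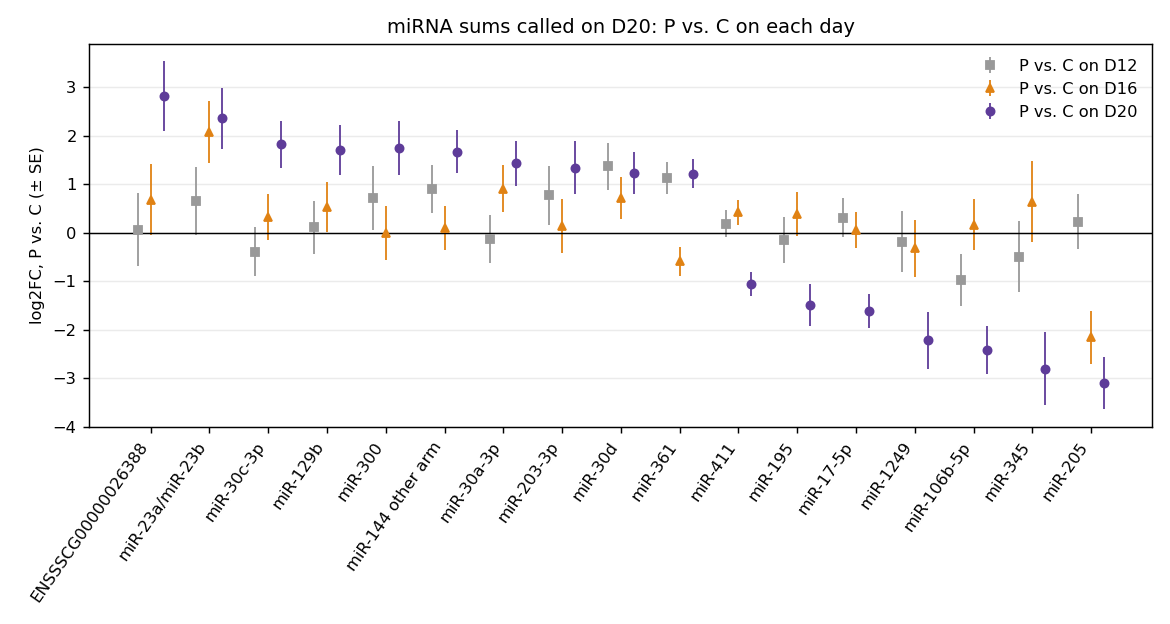
log2FC of P vs. C with its SE on D12 (grey squares), D16 (orange triangles) and D20 (purple circles), from 1 fit of all 30 libraries, for the miRNAs called on D20 other than miR-302. miR-205 is at 0.23, -2.15 and -3.10 on the 3 days.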

How the data were processed

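Small RNA was sequenced from 1 endometrial sample per animal. The authors joined the reads, dropped those with a low-quality base, trimmed adapters, discarded reads under 17 bases and collapsed identical reads. They deposited, per library, each distinct sequence with its raw read count, not aligned or normalized. The 873 annotated sequences were taken from the study's supplementary list (sequences and names only). Its fold changes and p-values were not used.

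Counts were matched exactly, summed per miRNA arm and per seed family, scaled by TMM on annotated reads as counts per 1000000 (CPM) and tested with the edgeR 4.0.16 quasi-likelihood F-test in R 4.3.3 (prior count 0.125, 6 PD20 and 5 CD20 libraries). A call needed a Benjamini-Hochberg adjusted p under 0.05 over all features of a level and an absolute log2FC over 1. CPM are TMM-scaled, computed per level. Shares were compared by exact permutation over 462 splits, so that the smallest p is 0.00216. The exact interval of the miR-302 ratio came from scipy 1.17.1. Molecules carried no identifier, so intervals cover counting error only. Isomirs were placed by an ungapped overlap of at least 12 bases with the canonical sequence.

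The comparison, its members and the miRNA lists were chosen with earlier results of these data known. Named are all called features, sequences the study discusses, the 5 most abundant miRNAs and, of each list, the most abundant, highest and lowest members, not all of which are printed, beside those said to be named after their values. Looking up marker miRNAs outside the list was planned but not done, as no table of mature miRNAs was at hand. Alternatives were the likelihood ratio test, the exact test of edgeR, DESeq2 1.42.0, RLE scaling, all reads as library size, a minimum of 10 CPM, blocks and leaving out each library.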

Additional observations from a re-analysis of the deposited data

Results flagged for a closer look

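Within the day 20 groups, 208 sets of values were searched for a library far from the rest of its group, and 9 (4.33%) were found, where chance gives about 1 in 20. PD20 replicate 1 was far above the other PD20 libraries in miR-1 and miR-143-3p. It held 1684 CPM of canonical miR-1 (others 62.5 to 165 CPM), 380249 CPM of canonical miR-143-3p (others 32026 to 58687 CPM) and 702019 CPM of miR-143-3p summed over its forms (others 77521 to 164885 CPM). PD20 replicate 4 stood apart in 5 cases. It held 238 CPM of canonical miR-191 (others 35.1 to 57.8 CPM), 184 CPM of canonical miR-140-3p (others 584 to 852 CPM), 418 CPM of miR-30a-3p as a sum (others 1004 to 1604 CPM), 213301 CPM of miR-21 as a sum (others 466414 to 570098 CPM) and 19.2 CPM of miR-144 as a sum (others 1.26 to 3.89 CPM). PD20 replicate 3 held 11.2 CPM of the form of miR-182 that ends in CC, against 255 to 846 CPM in the others. No cause was tested.

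The difference between pregnant and cyclic endometrium changed with the day for 11 miRNAs, by the interaction of status and day in edgeR (quasi-likelihood test, Benjamini-Hochberg adjusted over 237 miRNAs). From D16 to D20 it changed by -2.59 on the log2 scale in miR-106b-5p (adjusted p = 0.0374), 2.01 in miR-1468 (0.0232), -1.997 in miR-155 (0.0232), -1.94 in miR-16 (0.0472), 1.80 in miR-361 (0.0226), 2.04 in miR-378 (0.0451), -1.67 in miR-380 (0.0321), -1.48 in miR-411 (0.0227) and -2.71 in miR-495-3p (0.0226). From D12 to D20 it changed by -3.33 in miR-205 (0.0386) and by -3.02 in miR-212 (0.0386).

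Reads outside the annotated list also held a signal. Reads of 28 to 31 bases that begin with gcatgggt averaged 1328 RPM (reads per 1000000 deposited reads) in PD20 (281 to 3021) and 63.0 in CD20 (16.95 to 99.3), without overlap, against 224 in PD12, 42.1 in CD12, 133.2 in PD16 and 46.5 in CD16. They start like the 5′ end of a glycine tRNA. This start was taken from sequences already called higher in PD20, so the separation is a description. The more abundant reads of this length that begin with gcattggt averaged 5534 RPM in PD20 and 1197 RPM in CD20 and overlapped, as did those that begin with gcattgtg (1456 and 333 RPM) and all reads of 28 to 31 bases (24006 and 15894 RPM).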

How the results depend on the processing

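No called value changed direction under an alternative. The 6 sequences called higher and 7 called lower in PD20 became 57 and 67 with the likelihood ratio test of edgeR, 54 and 66 with its exact test, 57 and 74 with DESeq2 and 43 and 55 in 1 fit of all 30 libraries, with all 13 among them each time. They were 5 and 6 with RLE scaling, 2 and 14 with all deposited reads as library size, 3 and 2 with a minimum of 10 CPM, 2 and 3 with the replicate block, 9 and 3 with a block for the range of the number in the sample titles, and 37 and 7 when all deposited sequences with at least 10 reads were tested (6 of the 13 among them). The number of called miRNAs (18) was 36 with the likelihood ratio test, 37 with DESeq2, 38 with all deposited reads as library size, 2 with the replicate block (miR-205 and miR-302) and 7 with the block for the title number. The number of families (7) was 28, 25 and 29 with the first 3 of these, 13 with a minimum of 10 CPM, 2 with the replicate block and 25 when every sequence was grouped by its own seed. The changes of the difference from D16 (9) and D12 (2) were 20 and 11 with the likelihood ratio test and 21 and 13 with all reads as library size. The difference in 22-base reads, -3.30 percentage points, was -2.96 (exact permutation p = 0.0628) among reads of 20 to 24 bases. The cause of these shifts was not tested. Leaving out 1 library at a time gave 2 to 48 sequences called higher and 3 to 68 called lower, 3 to 39 miRNAs and 2 to 23 families, and 0 to 15 and 0 to 9 changes between days. The shares differed by -2.45 to -1.15 percentage points for annotated reads, 0.541 to 1.07 for reads of 28 to 31 bases, -3.78 to -2.79 for reads of 22 bases and -2.45 to -1.51 for shifted 5′ ends. The mean share of reads shortened at the 3′ end differed by 1.64 to 2.07 percentage points, the arm ratio by -2.86 to -2.14 in miR-361 and 1.81 to 3.57 in miR-106b. The labels do not say whether the replicate numbers pair the animals. Same-numbered libraries deviated from their group means with correlations of 0.0622, -0.096, 0.064, -0.616 and -0.0936 for replicates 1 to 5. So few values cannot show whether same-numbered libraries were handled together. Low depth limits the rare sequences, as 1 read is 0.386 CPM in the deepest library after scaling.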
